A study of Rattus norvegicus with 6 samples.

Results

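The genes described here encode enzymes that make or use glutamate and glutamine. They are Glul, Gls2, Glud1, Got1, Got2, Gpt, Gpt2, Oat and Aldh18a1, chosen by function from their symbols, and all 9 had a row among the 22608 genes of the deposited table. Poly(A) RNA was sequenced from 3 libraries of rat primary astrocytes given β-hydroxybutyrate (BHB), a ketone body that the liver releases during fasting, and from 3 libraries of untreated control astrocytes. The column names give the dose as 2 mM. The cells came from brain. The sources used here do not give the strain, the age, the duration of treatment or whether libraries came from separate cultures, so a p-value covers only the spread among these libraries, which may be technical. The series concerns the uptake of glutamate by astrocytes, and these enzymes act on glutamate once it is inside the cell.

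In the brain, astrocytes clear glutamate released at synapses. Part of it is joined to ammonia by glutamine synthetase and returned to neurons as glutamine, and part is stripped of its amino group by glutamate dehydrogenase or by transaminases and enters the tricarboxylic acid cycle as 2-oxoglutarate. Transaminases run in both directions, so they can also make glutamate, and 2 further enzymes link glutamate to proline and ornithine.

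Values are FPKM, that is, fragment numbers divided by transcript length and by the total mapped in that library, so levels of different genes are compared per length. Between 12288 and 12312 genes reached 1 FPKM in a library. The value that 1 read was worth, read from the lowest values, lay between 0.851 and 1.01 relative to control 1, so relative depths differed little while the absolute depth is unknown. Libraries were alike, with pairwise correlations of 0.990 to 0.993 over the genes tested. All 9 astrocyte markers checked averaged at least 1 FPKM, and their sum was 5045 to 5067 FPKM in BHB libraries and 4641 to 4896 FPKM in control libraries; these markers include Slc1a3. Fibroblast and mural markers summed to 1393 to 1535 FPKM with BHB and 1327 to 1456 FPKM in controls, most of it Acta2, and averaged at least 1 FPKM in 4 of 6 genes. Neuron markers summed to 85.3 to 87.4 FPKM with BHB and 86.0 to 89.3 FPKM in controls (5 of 9 genes), microglia markers to 19.4 to 20.2 and 19.4 to 21.6 FPKM (5 of 6), oligodendrocyte lineage markers to 17.6 to 19.5 and 18.2 to 23.2 FPKM (5 of 6), and ependymal markers to 29.5 to 32.5 and 32.1 to 35.0 FPKM (1 of 3). Most of the ependymal sum was Foxj1, with a mean of 31.1 FPKM with BHB and 33.8 FPKM in controls. Tmem212, of the same list, was at 0 in every library. Endothelial markers stayed under 1 FPKM in every library, with Cldn5 at 0. The part of these cells in the values below was not tested, and in such bulk samples fewer cells of a type and less RNA per cell cannot be told apart.

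None of the enzyme genes passed the test with BHB. Of the 9 genes 8 reached the minimum of 1 FPKM in at least 3 libraries, and in limma 0 of these 8 had an adjusted p under 0.05, where 0.0566% of the 12373 genes tested did (7 genes). At an unadjusted p under 0.05 there were also 0 of 8, where 5.59% of the genes tested lay under it. The BHB and control groups did not overlap in 2 of the 8, Glul and Got2, where 10.9% of all genes tested had groups that did not overlap. Both separations rest on the unscaled values: with libraries scaled to equal sums or quantile normalized the groups overlapped in Glul and Got2, and with median ratios in Got2. Of the 8, 7 had a difference above 0 and Aldh18a1 had one below 0, where 51.5% of all genes tested lay above 0. The median was 0.06 on the log2(FPKM + 1) scale, BHB minus control, against 0.00 (0.00289) over all genes tested. The summed level of the 9 genes was 494 to 519 FPKM in BHB libraries and 480 to 490 FPKM in control libraries, a ratio of means of 1.05, and Glul made up 50.4% to 51.8% of it in every library.

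**Figure D1:**
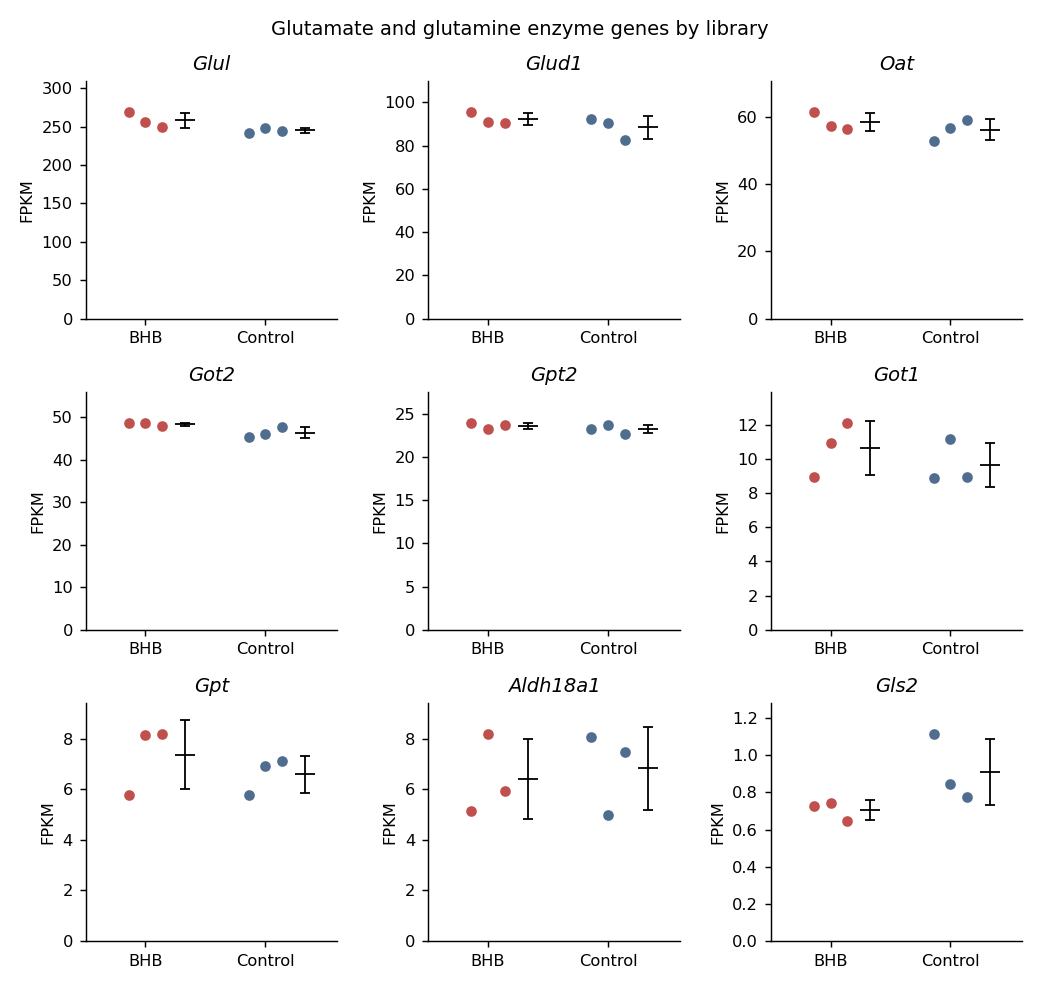
Level of each enzyme gene in FPKM (vertical axes, linear from 0) in the 3 BHB libraries (left) and the 3 control libraries (right), ordered by mean level. Points are libraries in the order 1 to 3, and bars are the mean and SD of a group. In these unscaled values the BHB and control points overlap in 6 of the 9 genes, and lie apart in Glul, Got2 and Gls2. Groups did not overlap in 10.9% of all genes tested, which did not include Gls2.

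The levels spanned from under 1 FPKM to over 242 FPKM. Over the 6 libraries Glul averaged 251 FPKM, Glud1 90.4, Oat 57.2, Got2 47.4, Gpt2 23.4, Got1 10.2, Gpt 6.98, Aldh18a1 6.62 and Gls2 0.808 FPKM. The ranges of neighbours in this order did not overlap, except that Gpt, at 5.76 to 8.18 FPKM, and Aldh18a1, at 4.97 to 8.17 FPKM, could not be ordered. Among the pair of opposite reactions, the synthetase was thus far more abundant than the glutaminase measured here. The 3 most abundant genes, Glul, Glud1 and Oat, all had means above 57 FPKM in the 6 libraries.

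Glutamine synthetase, encoded by Glul, makes glutamine from glutamate and ammonia and is a classical marker of astrocytes. Its level was 269, 256 and 249 FPKM in the BHB libraries, against 242, 249 and 244 FPKM in the control libraries. The lowest BHB library (249.0) stood barely above the highest control (248.5), so the groups did not overlap, by a margin smaller than the spread within either group. The mean ratio was 1.05, and the log2 difference of 0.07 (SE 0.0418) had a limma adjusted p of 0.890 and an exact two-sided permutation p of 0.1, the smallest that 3 against 3 allows. With equal sums or quantile normalization the exact p was 0.2. The 95% interval of the difference, -0.02 to 0.17, covers a ratio of 0.985 to 1.12 on this scale, so a change of the size of that of Slc1a3 lies outside it. Slc1a3, the transporter GLAST through which astrocytes take up glutamate, had a mean of 455 ± 11.6 FPKM with BHB and 203 ± 5.0 FPKM in controls (SD, n = 3 each), with a log2 difference of 1.16 (limma adjusted p = 1.64e-05).

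Gls2 encodes the glutaminase first known from liver, a mitochondrial enzyme that releases ammonia from glutamine to give glutamate. It was the least abundant gene of the group, at 0.729, 0.745 and 0.644 FPKM in the BHB libraries, against 1.11, 0.845 and 0.773 FPKM in the control libraries. All BHB values lay below all control values, and control 1 stood highest. Since only 1 library reached 1 FPKM, Gls2 was not among the 12373 genes tested. Its difference was -0.16 on the log2(FPKM + 1) scale, which understates changes at such low levels, and -0.31 with a pseudocount of 0.1, and the ratio of mean FPKM was 0.775. The exact two-sided permutation p was 0.1. With no minimum, among 17669 genes, the 95% interval was -0.34 to 0.02 and the limma adjusted p was 0.887. Without control 1 the difference shrank from -0.16 to -0.08 on the log2(FPKM + 1) scale. At this level its size cannot be set beside the differences of more abundant genes.

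Glud1 encodes glutamate dehydrogenase, which turns glutamate into 2-oxoglutarate and ammonia in mitochondria. It stood at 95.5, 91.0 and 90.3 FPKM in the BHB libraries and at 92.3, 90.6 and 82.5 FPKM in the control libraries. The groups overlapped, and control 3 was the lowest of the 6. The log2 difference was 0.06 (SE 0.0533, 95% interval -0.06 to 0.18, limma adjusted p = 0.910).

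The aspartate aminotransferases exchange the amino group between glutamate and aspartate. Got1 encodes the enzyme of the cytosol and Got2 that of mitochondria, and together they carry the amino acid side of the malate-aspartate shuttle. Got2 was at 48.6, 48.6 and 48.0 FPKM in the BHB libraries, against 45.3, 46.2 and 47.7 FPKM in the control libraries. The BHB libraries were nearly equal and all lay above the controls, the closest being control 3. The mean was 48.4 ± 0.353 FPKM with BHB and 46.4 ± 1.23 FPKM in controls (SD, n = 3 each), and the log2 difference of 0.06 (SE 0.0419, 95% interval -0.04 to 0.16) missed the threshold (limma adjusted p = 0.895, exact two-sided permutation p = 0.1). The exact p was 0.4 with equal sums or quantile normalization and 0.2 with median ratios, where the groups overlapped.

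Got1 was less abundant and far less even. It was at 8.95, 10.9 and 12.1 FPKM in the BHB libraries and at 8.87, 11.2 and 8.94 FPKM in the control libraries. The groups overlapped, with 1 BHB library and 2 controls near 9 FPKM and the other libraries at 10.9 FPKM or more. The log2 difference was 0.13 (SE 0.118, 95% interval -0.14 to 0.40, limma adjusted p = 0.913).

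Promoter windows from RefSeq (build GRCr8), taken as the 250 bases before a gene's start, were found for 7 of the 9 genes, and Gpt and Aldh18a1 had none in the table used. Glul and Gls2 each had a window for 2 starts. The letters CCAAT (the CCAAT box), GGGCGG (the GC box) and TATAAA (the TATA box) were counted on both strands, each motif on its own, so that overlaps between motifs were allowed. TATAAA was in none of the 9 windows, and 12.9% of the 33469 windows in the table held it. GGGCGG was in 6 of the 9 windows, in at least 1 start of Gls2, Glud1, Glul, Got1 and Oat, and in 30.5% of all windows. The share of G and C was 45.6% at 1 start of Gls2 and above the median of all windows, 51.2%, in the others, up to 78.8% in Glud1. The pair CG was present 6 to 45 times, against a median of 5 over all windows. The part of this composition in the motif counts was not tested. CCAAT was present 1 time at 1 start of Gls2, 1 and 3 times at the starts of Glul, 2 times in Oat and 6 times in Got1, and was missing in Glud1, Got2 and Gpt2. At least 1 CCAAT was held by 34.0% of all windows and at least 6 by 0.0329%. The windows of the aspartate aminotransferase pair are shown because they differ most in this motif, a choice made after the counts were seen, and capitals mark CCAAT or its reverse complement. The Got1 window is chr1:252329872-252330121 on the minus strand and the Got2 window is chr19:9180178-9180427 on the plus strand, both GRCr8 and written 5′ to 3′ on the strand of the gene.
Got1: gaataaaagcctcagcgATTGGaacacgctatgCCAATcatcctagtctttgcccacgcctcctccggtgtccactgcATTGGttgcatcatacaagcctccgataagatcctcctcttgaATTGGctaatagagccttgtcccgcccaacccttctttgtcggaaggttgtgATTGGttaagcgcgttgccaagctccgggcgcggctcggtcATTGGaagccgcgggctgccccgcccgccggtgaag
Got2: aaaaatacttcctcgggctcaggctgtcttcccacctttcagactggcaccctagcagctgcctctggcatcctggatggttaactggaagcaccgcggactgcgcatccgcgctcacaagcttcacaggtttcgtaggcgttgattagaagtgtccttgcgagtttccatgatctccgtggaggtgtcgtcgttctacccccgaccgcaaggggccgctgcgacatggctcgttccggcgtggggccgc
These matches describe the letters only, and no binding was measured.

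The alanine aminotransferases exchange the amino group between glutamate and alanine. Gpt encodes the enzyme of the cytosol and Gpt2 that of mitochondria. Gpt2 was the most even gene of the group, at 23.9, 23.2 and 23.6 FPKM in the BHB libraries and 23.2, 23.7 and 22.7 FPKM in the control libraries. The groups overlapped, and the log2 difference of 0.02 (SE 0.0458) had a 95% interval of -0.08 to 0.13, which covers a ratio of 0.945 to 1.09 on this scale (limma adjusted p = 0.957). Gpt was at 5.78, 8.17 and 8.18 FPKM in the BHB libraries and at 5.76, 6.91 and 7.11 FPKM in the control libraries. BHB 1 and control 1 were both low and nearly equal, and the other BHB libraries stood above the other controls. The log2 difference was 0.13 (SE 0.129, 95% interval -0.16 to 0.43, limma adjusted p = 0.917).

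In both pairs of transaminases the mitochondrial gene was more abundant and steadier across libraries than the cytosolic one. The coefficient of variation over the 6 libraries was 2.91% for Got2 and 1.86% for Gpt2, against 13.9% for Got1 and 15.4% for Gpt. Only 2.53% and 1.83% of the genes tested had a smaller residual SD than Got2 and Gpt2, and 91.0% and 92.9% had a smaller one than Got1 and Gpt. The less abundant gene of each pair is also the less steady, and the part of level in this was not tested.

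Oat and Aldh18a1 lead to the same intermediate on the way between glutamate, proline and ornithine. Ornithine aminotransferase, encoded by Oat, moves an amino group from ornithine to 2-oxoglutarate and so yields glutamate. Its level was 61.4, 57.2 and 56.3 FPKM in the BHB libraries and 52.8, 56.6 and 59.1 FPKM in the control libraries. The groups overlapped, with the highest value in BHB 1 and the lowest in control 1, and the log2 difference was 0.05 (SE 0.0563, 95% interval -0.08 to 0.18, limma adjusted p = 0.917).

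Aldh18a1 encodes the synthase that commits glutamate to proline and ornithine. It was at 5.13, 8.17 and 5.92 FPKM in the BHB libraries and at 8.05, 4.97 and 7.49 FPKM in the control libraries. Libraries of both groups were found high and low: BHB 2, control 1 and control 3 lay at 7.49 FPKM or more, and BHB 1, BHB 3 and control 2 at 5.92 FPKM or less. With a coefficient of variation of 22.04% it was the least steady gene of the group, and 97.5% of the genes tested had a smaller residual SD. Its log2 difference of -0.08 (SE 0.186) had the widest interval among the tested genes of the group, -0.51 to 0.35 (limma adjusted p = 0.965). The sign turned without BHB 1 (0.05) or without control 1 (0.04). The deposited values of Aldh18a1, Glud1, Gpt2 and Gls2 have more than 6 decimals, as do those of 7106 of the 12373 genes tested, while those of the other 5 genes do not, and the sources used here do not say how the authors combined transcripts into such values.

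**Figure D2:**
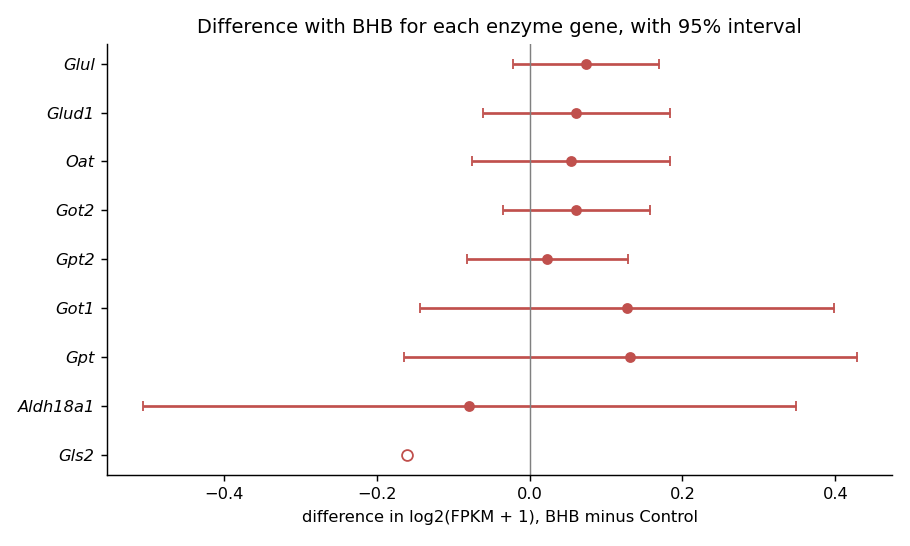
Difference in log2(FPKM + 1), BHB minus control (horizontal axis), for each enzyme gene, with the 95% interval from limma as bars. The open circle is Gls2, which was under the minimum level and has no interval in this fit. All 8 intervals include 0, and they are narrow in Glul, Got2 and Gpt2 and widest in Aldh18a1.

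Ratios between genes within a library do not depend on a factor that multiplies the whole library. Quantile normalization can change them, and they were not computed under it. The ratio of Glul to Glud1, the enzymes that turn glutamate into glutamine and into 2-oxoglutarate, was 2.82, 2.81 and 2.76 in the BHB libraries, against 2.62, 2.74 and 2.96 in the control libraries. The BHB values lay inside the range of the controls, and the difference in log2 ratio was 0.01 (exact two-sided permutation p = 0.9). The ratio of Got1 to Got2 was 0.184 to 0.252 with BHB and 0.187 to 0.241 in controls, a log2 difference of 0.08 (exact permutation p = 0.8). The ratio of Gpt2 to Gpt was 2.85 to 4.13 with BHB and 3.19 to 4.03 in controls, a log2 difference of -0.13 (exact permutation p = 0.6). The ratio of Aldh18a1 to Oat was 0.0836 to 0.143 with BHB and 0.0878 to 0.152 in controls, a log2 difference of -0.14 (exact permutation p = 0.7). In each of the 4 ratios the groups overlapped, all with a Benjamini-Hochberg adjusted exact p of 0.9, where 3 against 3 cannot go below an unadjusted 0.1. In each pair the difference between groups was smaller than the SD within them.

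**Figure D3:**
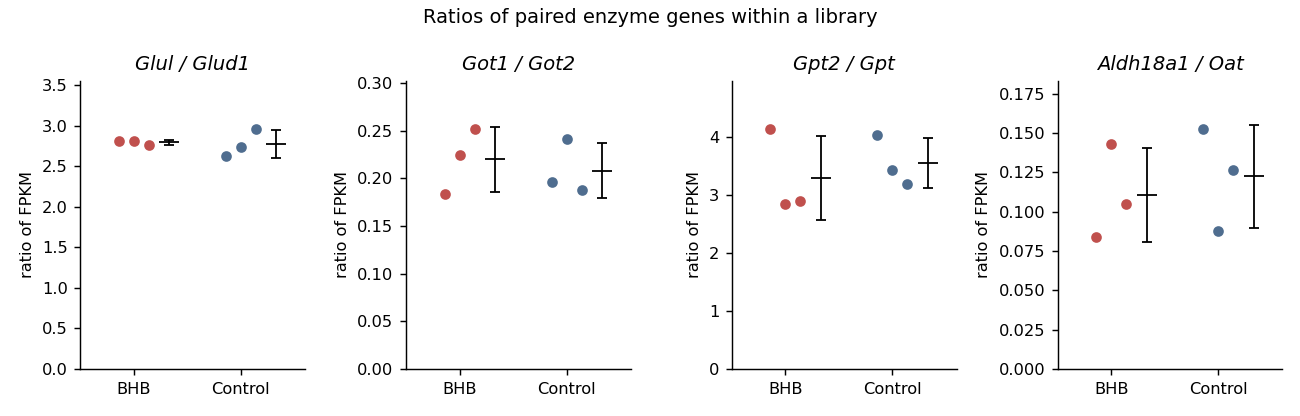
Ratio of FPKM between paired enzyme genes within each library (vertical axes, linear from 0), with BHB libraries left and control libraries right. Points are libraries and bars the mean and SD of a group, and BHB and control points overlap in all 4 panels.

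The wider set of genes around these enzymes also held no gene that passed. It consisted of 5 lists with 45 genes, all found in the table, of which 38 reached the minimum. In limma 0 of the 38 had an adjusted p under 0.05 and 0 had an unadjusted p under 0.05, where 0.0566% and 5.59% of all genes tested did. The groups did not overlap in 2 of the 38, Ctps1 and Ggt7, against 10.9% of all genes tested. The median difference was 0.02 over the 38, against 0.06 over the 8 enzyme genes and 0.00 (0.00289) over all genes tested.

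Enzymes that take nitrogen from the amide group of glutamine had a median log2 difference of 0.00 (0.00389), with 6 of 10 tested genes above 0, against 51.5% of all genes tested. The most abundant was Ctps1, a CTP synthase, at 37.5 ± 0.709 FPKM with BHB and 35.9 ± 0.444 FPKM in controls (SD, n = 3 each), with a difference of 0.06. Gmps, the GMP synthase, had 30.5 ± 2.42 FPKM with BHB and 33.3 ± 1.23 FPKM in controls (-0.13), and Asns, the asparagine synthetase, had 13.5 ± 1.04 FPKM with BHB and 12.3 ± 0.838 FPKM in controls (0.12; SD, n = 3 each). The limma adjusted p was 0.890 for Gmps and Asns and 0.895 for Ctps1.

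Other transaminases had a median of -0.02, with 3 of 7 tested genes above 0, and a median of 0.04 over the 4 genes that reached a minimum of 5 FPKM. Psat1, a transaminase of serine synthesis, was the most abundant, at 96.9 ± 1.82 FPKM with BHB and 98.0 ± 2.44 FPKM in controls (SD, n = 3 each). Bcat1, the cytosolic transaminase of branched-chain amino acids, had 48.4 ± 2.14 FPKM with BHB and 45.8 ± 2.24 FPKM in controls, and Aadat, the aminoadipate aminotransferase, had 2.22 ± 0.442 and 2.57 ± 0.102 FPKM (SD, n = 3 each). Tat, Agxt and Agxt2, transaminases best known from liver, were listed at 0 in all libraries. Neighbours of Oat and Aldh18a1 in proline and ornithine metabolism lay above 0 in 7 of 7 tested genes, with a median of 0.04 and a range of 0.01 to 0.15, where 51.5% of all genes tested lay above 0. The 7 of 7 refers to the unscaled values. The median was 0.0285 with libraries scaled to equal sums, 0.0071 without BHB 2 and 0.0156 without control 1. Odc1, the ornithine decarboxylase, had 74.1 ± 3.91 FPKM with BHB and 72.4 ± 1.54 FPKM in controls, Prodh1, a proline dehydrogenase, had 5.17 ± 0.224 and 4.58 ± 0.556 FPKM, and Aldh4a1, which finishes the conversion of proline to glutamate, had 14.3 ± 1.62 and 13.5 ± 1.03 FPKM (SD, n = 3 each). These 7 genes had limma adjusted p of 0.890 or more, and the direction over them carries no test.

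Genes that lead glutamate into and out of glutathione had a median of 0.03, with 4 of 6 tested genes above 0. The median turned to -0.03 without BHB 1 and was 0.07 without BHB 3. Gclc, the catalytic subunit of glutamate-cysteine ligase, was the most abundant, at 171 ± 5.31 FPKM with BHB and 178 ± 8.41 FPKM in controls, and Ggt7, a member of the gamma-glutamyltransferase family, had 6.15 ± 0.384 and 5.69 ± 0.0353 FPKM (SD, n = 3 each). Carriers and dehydrogenases of the malate-aspartate shuttle, the mitochondrial glutamate carriers and pyruvate carboxylase had a median of 0.02, with 6 of 8 above 0. Mdh2, the mitochondrial malate dehydrogenase, had 143 ± 5.48 FPKM with BHB and 142 ± 6.42 FPKM in controls, and Slc25a11, the carrier of 2-oxoglutarate and malate, had 56.2 ± 2.89 and 53.2 ± 3.31 FPKM (SD, n = 3 each). Slc25a22, a mitochondrial glutamate carrier, was at 6.48, 7.34 and 7.37 FPKM in the BHB libraries and at 3.44, 6.83 and 6.57 FPKM in the control libraries. Control 1 alone was low, and the log2 difference of 0.33, the highest in the 5 lists, had a 95% interval of -0.12 to 0.78 (limma adjusted p = 0.890) and was 0.07 without control 1.

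**Figure D4:**
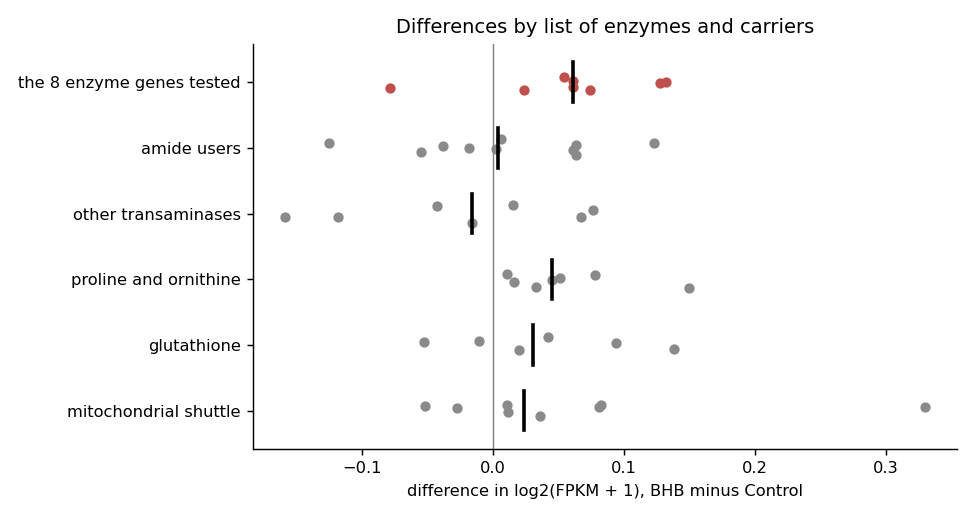
Difference in log2(FPKM + 1), BHB minus control (horizontal axis), of each tested gene in the enzyme group and in the 5 lists around it. Points are genes and black lines list medians; heights within a row are scattered for legibility. Medians lie between -0.02 and 0.06, and the point farthest right is Slc25a22 at 0.33.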

How the data were processed

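Poly(A) RNA was sequenced in 3 BHB and 3 control libraries, grouped by their titles. The values are FPKM as the authors deposited them, in 1 table. Per the submitters' processing notes the tools include bcl2fastq 2.0, HISAT2, StringTie and DESeq2, and the build is rn6, without roles or settings. The sources used here do not give the annotation, the strandedness or how shared reads were counted. FPKM cannot be tested as read counts, and absolute depth is unknown.

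Values were transformed as log2(FPKM + 1), which understates changes of low genes, and not rescaled. Genes reaching 1 FPKM in 3 or more of the 6 libraries were fitted with limma 3.58.1 in R 4.3.3 (eBayes with trend, two-sided, Benjamini-Hochberg over all 12373 genes tested, threshold 0.05, 95% intervals). Single genes and ratios also had an exact two-sided permutation test of group means. The script was tested on simulated data. The alternatives concerned the pseudocount, the minimum level, scaling, eBayes trend, array weights, a replicate block and leaving out each library.

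The enzyme genes and the lists around them were chosen with earlier results of these data known. From each list the most abundant gene and the 2 tested genes with the smallest p were named, and other genes named were chosen after their values were seen. The list symbols Pycr3 and Prodh were matched to the table's Pycrl and Prodh1. Replicate numbers were not used to pair the libraries in the main fit, and the sources used here do not state a pairing.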

Additional observations from a re-analysis of the deposited data

How the results depend on the processing

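Under 15 alternatives no enzyme gene passed, and the lowest limma adjusted p of any of them in any of these fits was 0.685. The number of genes called over the whole table was 7, also with the other pseudocount, each scaling and array weights. It was 5 with no minimum level, 6 with a minimum of 5 FPKM and 4 without the eBayes trend, and the cause was not tested. With the replicate number as a block 2 genes were called, in a fit with fewer residual degrees of freedom, and 0 enzyme genes. Same-numbered libraries did not all deviate together (correlations of deviations -0.0899, 0.164 and -0.151). The highest correlations were BHB 1 with control 3 (0.203), BHB 3 with control 1 (0.186) and BHB 2 with control 2 (0.164), and all other pairs were negative. Deviations were taken from group means, so those of a group cancel. Each library must therefore have both positive and negative correlations with the other group, and the mix of signs is no result. Whether libraries shared a culture or batch in that order was not tested. With any single library left out, 5 to 10 genes were called, 0 of them enzyme genes. The Aldh18a1 difference then ran from -0.26 to 0.05, above 0 without BHB 1 (0.0473) and without control 1 (0.0370). Log2 ratio differences ran from -0.0274 to 0.0600 for Glul to Glud1, below 0 without control 1, from -0.03 to 0.20 for Got1 to Got2, below 0 without BHB 3 (-0.0258), and from -0.37 to 0.04 for Aldh18a1 to Oat, above 0 without BHB 1 (0.0391) and without control 1 (0.0324). Each of the other enzyme genes and the ratio of Gpt2 to Gpt kept the sign of its difference under all alternatives run, though not its size. When a library was left out, differences ran from 0.04 to 0.10 for Glul, 0.04 to 0.08 for Got2, 0.0115 to 0.0922 for Glud1, 0.0110 to 0.0906 for Oat, 0.0075 to 0.0375 for Gpt2, 0.04 to 0.24 for Got1, 0.05 to 0.28 for Gpt, -0.21 to -0.08 for Gls2 and -0.30 to -0.03 for the log2 ratio of Gpt2 to Gpt. The median of the tested enzyme genes was then 0.05 to 0.08. The summed level of the enzyme genes, an addition made after seeing the data, had a ratio of 1.03 when libraries were scaled to equal sums and 1.04 with median ratios. The median difference of all genes was 0.0029 unscaled and -0.0121 with equal sums, the scaling that moved it most. Between the same 2 settings the median of the tested enzyme genes fell from 0.0609 to 0.0442, and the Gpt2 difference from 0.0231 to 0.0069. The 3 against 3 design and the unknown depth limit what could be seen. Intervals still include ratios up to 1.12 for Glul and 1.35 for Gpt on the log2(FPKM + 1) scale. On the lower side they reach 0.704 for Aldh18a1.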
